A study of Mus musculus with 2 samples.

Results

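The Usp17-like deubiquitinase genes of the mouse, Usp17la (first named Dub1), Usp17lb (Dub1a), Usp17lc (Dub2) and Usp17ld (Dub2a), were followed through 2 RNA-seq libraries of CGR8 embryonic stem cells. The 4 genes were found by matching the RefSeq accession of each listed transcript to its symbol or older name, and they are 4 of the 22421 genes with a value. They were chosen by their deposited levels in these same libraries, being higher with the Set1a siRNA, so those levels are given as a description and carry no test. CGR8 is a mouse embryonic stem cell line, grown here without feeder cells on gelatin in serum with leukaemia inhibitory factor (LIF). The first library came from CGR8 cells transfected with an siRNA against Set1a, and the second from CGR8 cells transfected with a negative control siRNA; the labels describe repeated transfection over 72 hours for both. The target, under the symbol Setd1a, is the gene of an enzyme that methylates lysine 4 of histone H3, and the comparison asked how lowering it changes expression across the genome. Each group held 1 library, so no difference has a replicate check and no p-value is given.

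Deubiquitinases remove ubiquitin from proteins and so oppose the ligases that mark proteins for degradation or signalling. The ubiquitin-specific proteases (USPs) are the largest class of them and cut with a catalytic cysteine. The Usp17-like genes are a mammalian USP subfamily that multiplied in tandem; in mouse lymphocytes and blood cell lines Dub1 was found as an immediate early gene induced by interleukin-3, and Dub2 as one induced by interleukin-2. In mouse embryonic stem cells, Usp17-like transcripts are also known among the genes that are high in the rare cells resembling the 2-cell embryo.

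The members lie on 1 chromosome in 2 separate groups and are much alike in sequence. In the RefSeq gene table of assembly GRCm38.p6 the family on chromosome 7 runs in the order Usp17ld, Usp17lc, Usp17le-ps, Usp17le, Usp17lb and Usp17la. Usp17lc and Usp17ld have 8 other genes between them, while Usp17la follows Usp17lb directly. Between Usp17lc and the next family gene, Usp17le-ps, lie 96 genes. Usp17le and the pseudogene Usp17le-ps were not analysed here. The coding frames of Usp17lc and Usp17ld are 1638 bases each and 98.4% identical. Usp17la, with a frame of 1581 bases, is 93.9% identical to Usp17lc and 94.1% to Usp17ld over the aligned bases. Usp17lb has the shortest frame, 1407 bases, and is the most divergent, at 91.1% to 91.3% identity with the other members.

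A 50-base stretch found in all 4 frames is shown because a read from it belongs to no single copy. It occupies bases 160 to 209 of the Usp17lb frame and holds the codons around the catalytic cysteine.
all 4 members: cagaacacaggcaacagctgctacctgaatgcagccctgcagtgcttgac

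The next lines show the opposite case, the 50 bases in which Usp17lb differs most from the others, at bases 1358 to 1407 of its frame. Capitals mark bases that differ from Usp17lb. The matching stretch has 14 differences in Usp17la, 18 in Usp17lc and 18 in Usp17ld.
Usp17la: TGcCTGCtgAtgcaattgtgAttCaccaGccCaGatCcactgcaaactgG
Usp17lb: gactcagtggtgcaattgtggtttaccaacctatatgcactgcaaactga
Usp17lc: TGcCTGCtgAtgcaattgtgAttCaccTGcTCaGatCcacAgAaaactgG
Usp17ld: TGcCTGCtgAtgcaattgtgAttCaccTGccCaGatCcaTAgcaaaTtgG

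Such distinct stretches are spread unevenly over the family. Of all 50-base windows along the reference transcript, 80.4% of those of Usp17la and 75.8% of those of Usp17lb occur in the annotated transcripts of no other gene. The share is 38.4% for Usp17lc and 48.9% for Usp17ld, and within the coding frames 36.2% for Usp17lc and 37.7% for Usp17ld. Of the windows of Usp17lc, 59.2% are also in Usp17ld. The values of Usp17lc and Usp17ld are therefore less separate than those of Usp17la and Usp17lb. Usp17lb shares 13.03% of its windows with Usp17la and 11.6% with Usp17lc. Gm5053, a gene not analysed here, shares 104 windows with Usp17la, 172 with Usp17lb, 103 with Usp17lc and 99 with Usp17ld. Leaving Gm5053 and the Usp17-like genes aside, Usp17la shares 99 windows, all outside its coding frame, with 32 other genes, and the other members share 0.

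**Figure D1:**
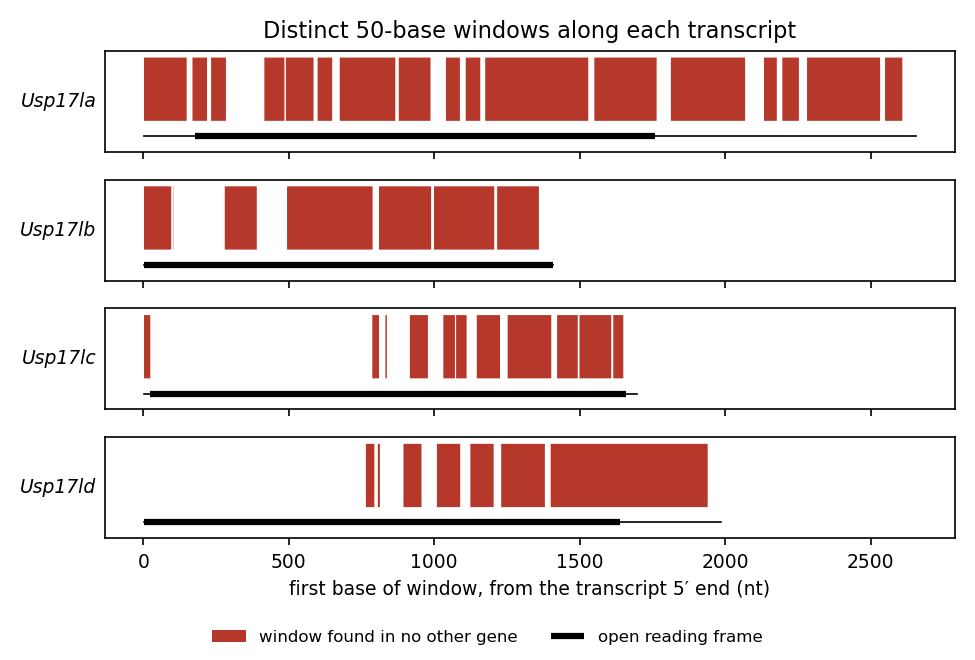
Distinct sequence along the reference transcripts of the 4 members, with the position of the first base of each 50-base window in nucleotides on the horizontal axis. Filled blocks mark windows found in no other annotated gene and the thick bar marks the open reading frame; Usp17lc and Usp17ld have long gaps over the first part of the frame, where they match each other.

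The promoters of the 4 genes are shown because the genes were higher in the same library and their upstream sequence is nearly the same. Sequences are from RefSeq, build GRCm38.p6, and all 4 members were in its promoter table. Each line starts 100 bases before an 8-base box, in capitals, and ends at the annotated start or 40 bases after the box. The stretches are chr7:104856870-104857015 (plus strand) for Usp17la, chr7:104842584-104842714 (minus strand) for Usp17lb, chr7:103416508-103416655 (plus strand) for Usp17lc and chr7:103252568-103252715 (minus strand) for Usp17ld.
Usp17la: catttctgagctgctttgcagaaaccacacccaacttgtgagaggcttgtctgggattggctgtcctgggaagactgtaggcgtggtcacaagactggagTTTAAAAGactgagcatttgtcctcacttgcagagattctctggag
Usp17lb: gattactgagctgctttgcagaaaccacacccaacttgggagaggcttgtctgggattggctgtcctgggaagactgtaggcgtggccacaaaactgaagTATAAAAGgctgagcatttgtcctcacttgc
Usp17lc: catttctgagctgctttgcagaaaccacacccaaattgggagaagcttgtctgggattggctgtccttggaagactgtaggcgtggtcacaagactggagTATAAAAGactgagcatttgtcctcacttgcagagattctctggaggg
Usp17ld: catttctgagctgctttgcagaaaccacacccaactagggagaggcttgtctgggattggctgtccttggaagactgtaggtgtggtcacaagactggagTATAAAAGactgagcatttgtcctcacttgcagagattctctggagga

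The box is the TATA-like sequence TATAAAAG in Usp17lb, Usp17lc and Usp17ld. In Usp17la it reads TTTAAAAG, which is A2T against Usp17lc, counted from 1 at the 5′ end of the box. Its first base lies 31 bases before the annotated start in Usp17lb, 46 in Usp17la, 88 in Usp17lc and 110 in Usp17ld, so the annotated starts are not at the same place in the shared sequence. Over the aligned bases of the 300-base table entries, the promoters are 91.7% to 96.8% identical.

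Short motifs were searched on both strands of the 300 bases, and the choice of motifs was made after reading these promoters. TATAAA was found in 3 of the 4 members, all but Usp17la, and in 13.6% of 32851 promoters. CCACACCC was found once in each of the 4 members, 76 bases before the box, and in 3.56% of promoters. CCAAT lies 45 bases before the box on the antisense strand in all 4, and occurs in 37.4% of promoters. The palindrome TTCNNNGAA, the form bound by STAT5, was found in Usp17la, Usp17lc and Usp17ld and in 8.30% of promoters. GATTNAATC, of the kind bound by mouse Dux, and TGCACAC, of the kind bound by Zscan4, were found in 0 of the 4, and in 0.268% and 4.396% of promoters. As the 4 promoters are near copies, a motif shared by all of them is 1 observation.

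In values per length, RPKM (reads scaled by transcript length and library depth), each of the 4 members was higher with the Set1a siRNA than with the control siRNA. Usp17la was at 4.64 RPKM in the Set1a siRNA library and 1.99 RPKM in the control siRNA library. Usp17lb was at 4.65 RPKM in the Set1a siRNA library and listed at 0 in the control siRNA library. Usp17lc was at 3.40 RPKM in the Set1a siRNA library and 0.531 RPKM in the control siRNA library. Usp17ld, its close copy, was at 3.04 RPKM in the Set1a siRNA library and 0.459 RPKM in the control siRNA library. All 4 values of the Set1a siRNA library lay above all 4 of the control siRNA library. Usp17lb, the highest, exceeded 63.4% of all genes in the Set1a siRNA library.

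**Figure D2:**
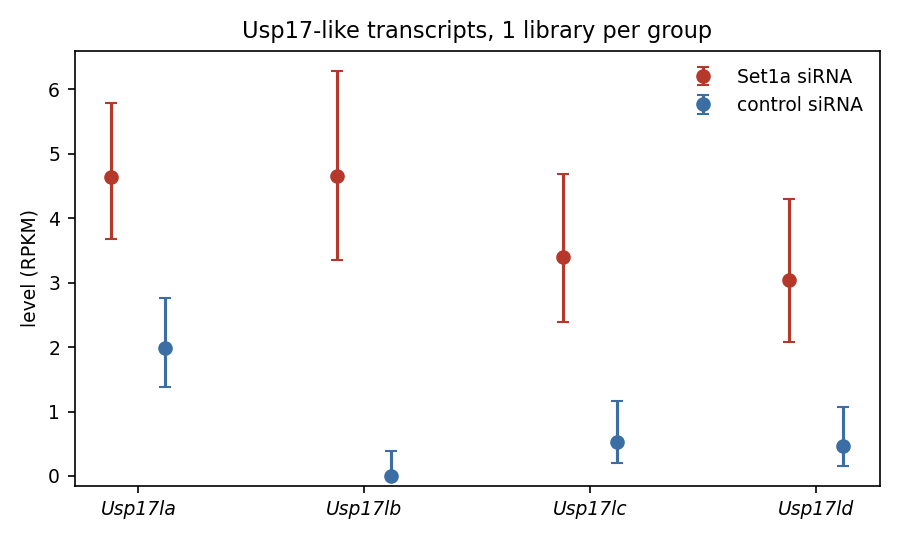
Level of each member in RPKM (vertical axis), in the Set1a siRNA library (left point of each pair) and the control siRNA library (right point), with exact 95% Poisson intervals that cover counting error only. In the Set1a siRNA library the members sit between 3.04 and 4.65 RPKM, and in the control siRNA library between 0 and 1.99 RPKM, with Usp17la highest there.

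Behind these levels stood few reads, which could be estimated because most low deposited values move in steps of 1 read. Usp17la had 79 reads in the Set1a siRNA library and 35 in the control siRNA library, a ratio of 2.34 in RPKM with a counting interval of 1.55 to 3.59. Usp17lb had 42 reads in the Set1a siRNA library and 0 in the control siRNA library. With 3 reads as the limit that a count of 0 allows in that library, Usp17lb was at least 14.5-fold higher, a value that takes the 42 reads as exact. The limit corresponds to 0.320 RPKM. With the counting error of both libraries, the exact interval of the ratio starts at 11.3.

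Usp17lc had 37 reads in the Set1a siRNA library and 6 in the control siRNA library, a ratio of 6.39 (2.67 to 18.5). Usp17ld had 32 reads in the Set1a siRNA library and 5 in the control siRNA library, a ratio of 6.63 (2.57 to 21.8). The intervals are exact Clopper-Pearson intervals at 95%, cover counting error only, and take each read as counted at 1 copy. Whether a read matching several copies was dropped, counted once or counted at each is not given in the sources used here. The length the authors used for each transcript is not known and sets the read number. At the reference lengths, Usp17lc came to 37.0 reads in the Set1a siRNA library and 6.0002 in the control siRNA library, and Usp17lb, whose reference transcript is its coding frame of 1407 bases, to 42.0 and 0. Usp17la came to 79.2 reads in the Set1a siRNA library and 35.1 in the control siRNA library, and Usp17ld to 38.8 and 6.07 in that order. For Usp17la, Usp17lc and Usp17ld the whole numbers were taken from the ratio of their values in the 2 libraries, which fixes them as whole. The length this implies for Usp17ld is 1638 bases, that of its coding frame, against 1987 bases of the reference transcript, and for Usp17la 2649 against 2656 bases.

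The order of the members differed between libraries. In the Set1a siRNA library it ran Usp17lb, Usp17la, Usp17lc, Usp17ld, and the Poisson intervals of neighbours in that order overlapped. The widest gap, between Usp17la at 3.68 to 5.79 RPKM and Usp17lc at 2.39 to 4.68 RPKM, was within them. In the control siRNA library the order was Usp17la, Usp17lc, Usp17ld, Usp17lb. There Usp17la lay at 1.38 to 2.76 RPKM, above the interval of Usp17lc, 0.195 to 1.16 RPKM. The intervals of Usp17lc, Usp17ld and Usp17lb overlapped. All of these intervals cover counting error only. Of 50-base windows, 80.4% were distinct in Usp17la, 75.8% in Usp17lb, 38.4% in Usp17lc and 48.9% in Usp17ld. If multiply matching reads were dropped, the levels would be lowered unequally, so the order between members was not settled.

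In reads, which also follow transcript length, Usp17la made up 41.6% of the family's reads in the Set1a siRNA library and 76.1% in the control siRNA library. Usp17lb made up 22.1% in the Set1a siRNA library and 0% in the control siRNA library. Usp17lc held 19.5% in the Set1a siRNA library and 13.04% in the control siRNA library, and Usp17ld held 16.8% and 10.9% in the same order of libraries. Of the family's summed RPKM, Usp17la made up 29.5% in the Set1a siRNA library and 66.7% in the control siRNA library. Usp17lb made up 29.6% and 0% in that order. The shares of reads and of RPKM were not corrected for the unequal distinct sequence of the members. Summed over the 4 members there were 190 reads in the Set1a siRNA library and 46 in the control siRNA library, a ratio of 4.28 (3.09 to 6.04). Without Usp17la the sums were 111 reads in the Set1a siRNA library and 11 in the control siRNA library, a ratio of 10.5 (5.62 to 21.6). If every read had been counted at each copy, the sum would count reads more than once; the member with the most reads in each library, Usp17la in both, gives 2.34.

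The log2(RPKM + 1) scale understates changes of low genes. The log2 fold of Set1a siRNA over control siRNA was 2.50 for Usp17lb, 1.52 for Usp17lc, 1.47 for Usp17ld and 0.92 for Usp17la. A gene was called when it was at least 2-fold higher or lower on this scale with a mean of at least 1 RPKM over both libraries. By that rule 3 of the 4 members were called higher and 0 lower, all but Usp17la, where 0.764% of 11786 genes were called higher and 0.407% lower. This contrast chose the members, so nothing is read from their count. Of the 4 members, 1, Usp17la, reached 1 RPKM in the control siRNA library, and the other members passed the floor through their Set1a siRNA value. The count of members called higher was 4 with 0.1 RPKM added, where 1.5% of genes were called higher, and 0 with 5 RPKM added, where 0.314% were.

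Genes with as few reads as the members were also counted. Of 2225 genes with transcripts of at least 200 nucleotides and between 37 and 114 reads in total, the range of the members, 5.53% were at least 2-fold higher by reads per depth and 2.02% at least 2-fold lower. By this rule, chosen after the values were seen, all 4 members were at least 2-fold higher. Ordered by log2 fold from the highest of the 11786 genes, Usp17lb was in place 14, Usp17lc in place 57, Usp17ld in place 61 and Usp17la in place 104.

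**Figure D3:**
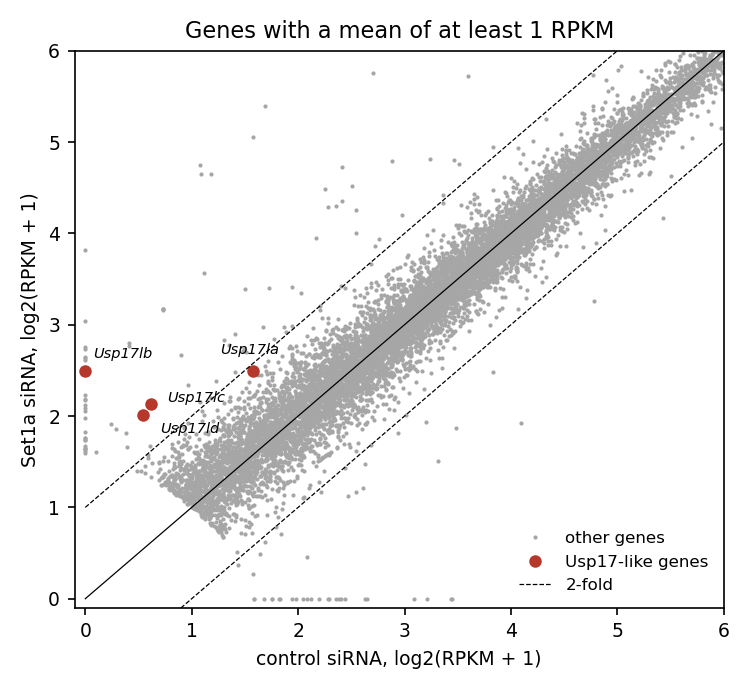
Level of each gene with a mean of at least 1 RPKM, as log2(RPKM + 1), in the Set1a siRNA library (vertical axis) against the control siRNA library (horizontal axis); both axes end at 6 and more abundant genes are not drawn. Dashed lines mark 2-fold, and Usp17lb, Usp17lc and Usp17ld lie above the upper one while Usp17la, at a log2 fold of 0.92, lies just under it.

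Depth was about 6421000 reads in the Set1a siRNA library and 6656000 in the control siRNA library. Setd1a itself was at 11.97 RPKM in the Set1a siRNA library and 14.2 RPKM in the control siRNA library, a ratio of 0.846 (0.746 to 0.959), so the targeted transcript was lower by a small amount. All 6 pluripotency markers were well expressed, at 83.7 to 740 RPKM in the Set1a siRNA library and 79.5 to 745 RPKM in the control siRNA library. Blood cell markers were relevant because the Dub genes were found in such cells. Over 5 genes they summed to 1.46 RPKM in the Set1a siRNA library and 1.74 RPKM in the control siRNA library. Of these, Ptprc and Csf1r were at 0 in both. Cd3e had 9 reads in the Set1a siRNA library and 10 in the control siRNA library. Itgam had 11 and 11 reads and Cd79a 1 and 3, in that order. Fibroblast markers summed to 4.49 RPKM over 6 genes in the Set1a siRNA library and 2.63 RPKM in the control siRNA library, of which Thy1 gave 3.86 and 2.42 RPKM in that order. Col1a1 had 14 reads in the Set1a siRNA library and 3 in the control siRNA library, a ratio of 5.70 (1.35 to 26.3), Pdgfra had 11 and 6 in that order, and Col1a2, Postn and Fap were at 0 in both. Primitive endoderm markers summed to 2.41 RPKM over 6 genes in the Set1a siRNA library and 2.11 RPKM in the control siRNA library. Trophectoderm markers summed to 14.4 RPKM over 6 genes in the Set1a siRNA library and 15.3 RPKM in the control siRNA library, with Cdx2 and Elf5 at 0 in both. Of these, Eomes was at 3.77 RPKM in the Set1a siRNA library and 2.55 RPKM in the control siRNA library, a ratio of 1.48 (1.06 to 2.10), and Tfap2c at 9.72 RPKM in the Set1a siRNA library and 11.9 RPKM in the control siRNA library. The part of these cells in the members' values was not tested. In bulk RNA, more cells with a transcript and more of it per cell cannot be told apart.

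The genes beside the members on chromosome 7 were listed at 0. Among the 5 annotated genes on each side of every member, 27 lie outside the family, and 21 of these, all olfactory receptor genes, have a value. All 21 were listed at 0 in both libraries. So were 5383 of all 22421 genes, and olfactory receptor genes elsewhere were not compared. Olfr596, next to Usp17ld, Olfr603 and Olfr605, which flank Usp17lc, and Olfr665, next to Usp17la, were among them. Olfactory receptors are smell receptors of nasal neurons.

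Other USP genes were on the whole more abundant than the members and close between the libraries. All 53 listed were found and 48 had a mean of at least 1 RPKM; 0 were called higher and 0 lower, 26 lay above 0 and 22 below, and their median log2 fold was 0.011, against 0.0066 for all genes above the floor. Usp7, which stabilises the p53 ligase MDM2 among others, was the most abundant, at 70.3 RPKM in the Set1a siRNA library and 74.2 RPKM in the control siRNA library. Usp9x was at 58.2 RPKM in the Set1a siRNA library and 58.9 RPKM in the control siRNA library. Usp48 was at 50.2 RPKM in the Set1a siRNA library and 53.9 RPKM in the control siRNA library, and Usp1, which acts on FANCD2 and PCNA in DNA repair, at 38.9 and 33.9 RPKM in that order.

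The USP folds farthest from 0 were those of Usp2, at 2.09 RPKM in the Set1a siRNA library and 1.20 RPKM in the control siRNA library (log2 fold 0.49), and Usp4, at 25.2 and 19.1 RPKM in that order (0.38). Usp14, which trims ubiquitin at the proteasome, was at 19.3 RPKM in the Set1a siRNA library and 24.6 RPKM in the control siRNA library (log2 fold -0.33). Usp5, which takes apart free ubiquitin chains, was at 40.4 RPKM in the Set1a siRNA library and 32.1 RPKM in the control siRNA library (0.32). The log2 folds of the 48 ran from -0.33 to 0.49, and that of Usp17la, the lowest of the members, was 0.92. The members were chosen for being higher in this contrast and the other USP genes were not, so nothing is read from the gap. In RPKM, Usp17lb stood above 18 of the 53 other USP genes in the Set1a siRNA library and above 0 in the control siRNA library; Usp17la stood above 18 and 11, Usp17lc above 15 and 5, and Usp17ld above 14 and 5, in that order of libraries.

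**Figure D4:**
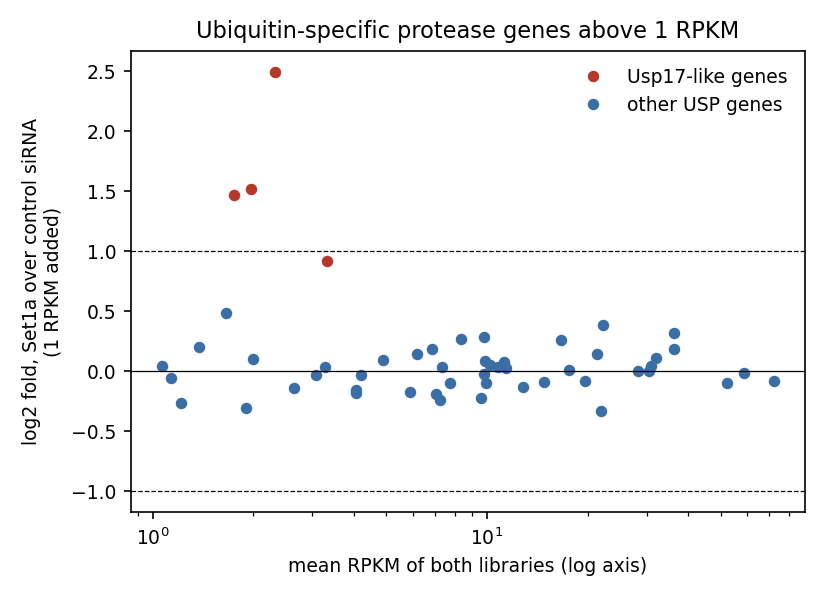
Log2 fold of Set1a siRNA over control siRNA with 1 RPKM added (vertical axis) against the mean RPKM of both libraries on a log axis, for the 4 Usp17-like genes and the 48 other USP genes above 1 RPKM. Dashed lines mark 2-fold, and the other USP genes lie between -0.33 and 0.49. The Usp17-like genes were chosen for being higher in this contrast.

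Genes whose proteins were reported as acted on by USP17 enzymes, mostly from human cells, were also close between libraries in RNA level. Deubiquitinases act on the protein, so RNA levels cannot show whether a substrate protein was affected. Of 10 such genes 7 were above the floor, 0 were called in either direction, and the median log2 fold was 0.08. Rce1, a protease that matures Ras proteins, was at 14.8 RPKM in the Set1a siRNA library and 12.6 RPKM in the control siRNA library (log2 fold 0.22). Snai1, a transcriptional repressor, was at 1.47 RPKM in the Set1a siRNA library and 1.14 RPKM in the control siRNA library (0.21). Cdc25a, a phosphatase that drives entry into S phase, was at 14.4 RPKM in the Set1a siRNA library and 16.4 RPKM in the control siRNA library (-0.18), and Ddx58, the RNA sensor RIG-I, at 5.89 and 5.502 RPKM in that order (0.08).

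The cytokine receptor and JAK-STAT5 genes include those of the route by which interleukins induce Dub genes in mouse blood cells, and also Lifr and Il6st. Of the 18 listed, 12 were above the floor. Of these, 0 were called in either direction, and the median log2 fold was 0.08. Csf2rb, the receptor subunit shared by interleukin-3, interleukin-5 and GM-CSF, was listed at 0 in both libraries. Csf2rb2, the subunit specific to interleukin-3 in the mouse, had 4 reads in the Set1a siRNA library and 3 in the control siRNA library. Il3ra, the interleukin-3 binding subunit, was at 2.35 RPKM in the Set1a siRNA library and 3.45 RPKM in the control siRNA library (log2 fold -0.41), and Csf2ra at 1.18 and 2.03 RPKM in that order (-0.48). Socs1, an inhibitor of JAK kinases, was at 3.32 RPKM in the Set1a siRNA library and 2.10 RPKM in the control siRNA library (0.48). Stat5b, one of the transcription factors of this route, was at 2.34 RPKM in the Set1a siRNA library and 1.59 RPKM in the control siRNA library (0.37). Of the interleukin-2 receptor genes, Il2ra had 13 reads in each library. Il2rb had 0 reads in the Set1a siRNA library and 3 in the control siRNA library, and Il2rg 4 and 13 in that order. Csf2rb, Csf2rb2 and the interleukin-2 receptor genes were named after their values were seen.

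Of 20 genes of the 2-cell state found, a list drawn up with these results partly known, 12 were above the floor. Of these 12, 10 were called higher and 0 lower, with a median log2 fold of 2.68. Of all 11786 genes above the floor, 0.764% were called higher and 0.407% lower. The called genes include 5 related Zscan4 genes, which are not separate observations. Whether the other called genes are related to each other was not examined. Eif1a (log2 fold -0.11) and Sp110 (0.07) were above the floor and not called. Tcstv1 and Tcstv3 were at 0 in both libraries. The median was the same with 3 reads in place of the control value of 1 gene listed at 0, Gm428. Zscan4f, a gene of telomere maintenance and the 2-cell state, was at 41.2 RPKM in the Set1a siRNA library and 2.22 RPKM in the control siRNA library. Its relatives Zscan4b, Zscan4d and Zscan4c were at 25.8, 24.2 and 32.2 RPKM in the Set1a siRNA library, and at 1.11, 1.13 and 1.98 RPKM in the control siRNA library. The summed ratio of 5 Zscan4 genes was 19.1 (15.7 to 23.4), against 4.28 (3.09 to 6.04) for the 4 Usp17-like genes and 10.5 (5.62 to 21.6) without Usp17la. Both sums run over related genes, so their intervals are too narrow if reads were counted at several copies. The difference between the ratios was not tested.

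Among 12415 genes with 20 reads or more in sum, the 5 nearest to Usp17la, the member with the most reads, were named by their distance on the log2(RPKM + 0.1) scale over the 2 libraries. The nearest was Mafa, at a distance of 0.09, with 4.47 RPKM in the Set1a siRNA library and 2.09 RPKM in the control siRNA library. Fxyd2, Rhog, Crabp1 and Bin1 followed, at distances of 0.12 to 0.19. With 2 libraries, a near pattern says only that both levels are similar.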

How the data were processed

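The deposited tables hold 1 value for each of 28430 RefSeq transcripts per library, with no header. They were taken as RPKM made by the authors, because most low deposited values, multiplied by transcript length, were near whole numbers of read steps. The submitters' processing notes name SAMtools 0.1.16, TopHat2 2.0.12, TopHat and CASAVA, and build mm9. What each did, how reads were counted, strand and the treatment of multiply matching reads: not given in the sources used here. Library depth was the value at which most transcripts of 1 to 5 reads came out whole; 73.6% with the Set1a siRNA and 74.7% with the control siRNA came within 0.1 read of a whole number, where random placement gives 20%. A read's worth differed between libraries by a factor of 1.04, the most frequent ratio of values. Members' reads are the whole numbers that give the ratio of both values; that of Usp17lb used its reference length.

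Symbols came from the GRCm38.p6 RefSeq table and GENCODE M21 for 27957 transcripts (98.3%), and lengths and transcript sequences from GENCODE M21; no deposited value was placed by coordinates of that build. Each gene is its transcript with most reads. Changes are log2(RPKM + 1), called past 2-fold with a mean of at least 1 RPKM. With 1 library per group there is no test. Genes were named by rule: the members; in each list the 4 folds farthest from 0 above the floor; the 4 most abundant USP genes; the 5 nearest patterns; and the 5 neighbours on each side. Members and lists were chosen with earlier results of these data known. Other genes of the lists were named after their values were seen. Depth recovery, folds and intervals were tested on simulated Poisson reads. The simulation used the same transcript lengths as the recovery and no multiply matching reads, so it could not check either. The step that gave the members' reads was not part of it. Alternatives varied pseudocount, floor, scaling, the members summed and window length. Python 3.11.15, numpy 2.4.6, scipy 1.17.1 and matplotlib 3.10.9 were used.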

Additional observations from a re-analysis of the deposited data

How the results depend on the processing

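All 4 members stayed higher with the Set1a siRNA than with the control siRNA under each pseudocount and scaling run, which could not have come out otherwise. An added value cannot reverse a difference, and the scaling factors on the Set1a siRNA library were only 0.9949 and 1.0027. The summed ratio of 4.28 was 10.5 without Usp17la, and 3.34, 3.96 and 3.99 without Usp17lb, Usp17lc and Usp17ld. It was 4.26 and 4.29 under the other scalings, and 5.29 as a ratio of summed RPKM, the last chosen after seeing the data. Usp17la alone, the largest single member, gave 2.34, which does not stand for the family. With 0.1 RPKM added, the log2 folds were 5.57 for Usp17lb, 2.47 for Usp17lc and 2.49 for Usp17ld, and with 5 RPKM added 0.95, 0.60 and 0.56; the added value itself sets this shift at low levels. For Usp17lb, listed at 0 in the control siRNA library, these folds are not bounds. Genes called higher and lower, 90 and 48, were 177 and 89 with 0.1 RPKM added, 37 and 10 with 5 RPKM added, and, by floor, 131 and 77 with none or 34 and 8 at 5 RPKM. The count of other USP genes called was 0 in either direction in all 6 alternatives. In windows of 36, 75 and 100 bases, the share found in no other gene was 68.1%, 92.3% and 96.2% for Usp17la, 69.5%, 83.1% and 88.2% for Usp17lb, 28.6%, 48.8% and 53.4% for Usp17lc, and 39.0%, 56.6% and 60.5% for Usp17ld; longer windows are more often distinct by construction. No paired analysis was possible because there was 1 library in each group. Low depth limits the control siRNA values of Usp17lb, Usp17lc and Usp17ld, which rest on at most 6 reads each.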
